A study of Mus musculus with 49 samples.

Results

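The early response of mouse CD8+ T cells to IL-2 was examined in wild-type (WT) cells cultured for 4 hr with the cytokine, against WT cells collected at 0 hr. RNA-seq libraries were chosen by their treatment label and time, and 11 of the 48 RNA-seq libraries were used. They came from mice of 2 lines that were backcrossed to the C57BL/6J background. The lines were made to carry a phenylalanine in place of the tyrosine of STAT5A or of STAT5B that is phosphorylated on activation. All libraries described here came from WT littermates in these lines, so every cell carried normal *Stat5a* and *Stat5b*. The mice were adults of both sexes, and CD8+ T cells were purified from the spleen with a magnetic isolation kit. The groups were *Stat5a* line WT at 0 hr (3 libraries), *Stat5a* line WT at 4 hr (2 libraries), *Stat5b* line WT at 0 hr (3 libraries), and *Stat5b* line WT at 4 hr (3 libraries). Cells of the 4 hr groups received 500 IU/ml recombinant human IL-2. The 0 hr cells were not cultured, and no library came from cells kept for 4 hr without IL-2, so IL-2 and time in culture cannot be told apart. Replicates are separate samples in the labels, which do not say whether each came from its own mouse.

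Between 38484769 and 60200653 reads lay on the longest transcript of each gene in these 11 libraries (median 41003468), which was 69.2% to 78.6% of the mapped reads. Replicate 2 of the *Stat5a* line at 4 hr was left out, because only 17369112 reads, 44.9% of its mapped reads, lay on these transcripts. Levels are given as normalized RPKM, the reads per kilobase of transcript, scaled to sequencing depth with the TMM factors of the 11 libraries. In a principal component analysis, the first component held 67.7% of the variance and separated the times, with the 0 hr libraries between −64.66 and −39.41 and the 4 hr libraries between 55.98 and 62.4. The second component held 9.58%, and replicates 1 and 2 of the *Stat5a* line at 0 hr stood apart on it, at 35.58 and 29.74, with replicate 1 at 4 hr at 23.51. These 3 libraries also had more *Cd79a*, a signaling chain of the B cell receptor, at 85.4, 97.9, and 65.3 normalized RPKM, against 17.97 to 31.6 in the other 8. The summed level of erythroid cell markers was also higher in these 3 libraries, at 540, 275, and 389, against 49.9 to 166 in the other 8. The set of 8 libraries therefore differs from them in more than B cell transcripts. Main counts, and genes whose level or call rested on these 3 libraries, are also given over the other 8 libraries.

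IL-2 binds a receptor made of IL-2Rα, IL-2Rβ, and the common cytokine receptor γ chain, which other cytokine receptors share. The receptor activates the kinases JAK1 and JAK3, which phosphorylate STAT5A and STAT5B. Phosphorylated STAT5 dimers enter the nucleus, bind DNA at GAS motifs, and induce feedback inhibitors of the pathway, survival genes, and genes that carry T cells into the cell cycle. Immediate early genes, such as those of the FOS and JUN families, are transcribed within minutes of many stimuli and their mRNAs decay fast.

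Of 14290 genes tested, 953 (6.67%) were called higher at 4 hr and 1712 (12%) were called lower, with calls made where the edgeR quasi-likelihood adjusted p did not exceed 0.05 and the change reached 2-fold. At least an 8-fold change was reached by 29 of the genes called higher and by 169 of those called lower. The genes called lower were mostly weakly expressed, with a median level of 1.03 normalized RPKM at 0 hr and 0.309 at 4 hr, and 844 of the 1712 had a mean below 1 at both times. The genes called higher had a median level of 1.56 at 0 hr and 4.35 at 4 hr. A mean of at least 10 at the higher time was reached by 274 genes called higher and 368 called lower. Over the 8 libraries with fewer B cell transcripts, 948 genes were called higher and 1606 lower. With limma on log2(RPKM + 1), a scale that understates the change of low genes, 512 genes were higher and 377 lower, so the share of higher genes among the calls was 57.6% in place of 35.8%. The median log2 change of all genes was 0.18 on that scale and −0.02 in the edgeR fit. All 4 hr libraries lay above all those at 0 hr for 26.4% of the genes tested and below them for 23.6%, and the largest rises and falls were chosen among genes without overlap. In bulk RNA, fewer cells of a type and less RNA per cell cannot be told apart.

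Known STAT5 targets rose in larger share than any other of the 31 lists. Lists and members were chosen with earlier results of these data known, so the ranking of lists is not independent evidence. Of 20 genes of a list of feedback inhibitors, survival genes, and other STAT5 targets, 14 (70%) were called higher and 1 (5%) lower. The shares of all genes were 6.67% and 12%. The list had a median log2 fold change of 1.59, against −0.02 over all genes tested. Over the 8 libraries with fewer B cell transcripts, 13 were called higher and 1 lower. *Lta*, which encodes the secreted cytokine lymphotoxin α, was at 6.92, 6.43, and 4.73 normalized RPKM at 0 hr in the *Stat5a* line and at 5.05, 4.72, and 4.79 in the *Stat5b* line. At 4 hr, *Lta* was at 61.9 and 63.0 in the *Stat5a* line and at 63.5, 66.8, and 63.4 in the *Stat5b* line. All 5 libraries at 4 hr lay far above all 6 at 0 hr, and the log2 fold change was 3.57 ± 0.09 (SE; adjusted p = 3.08e-12, edgeR).

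The SOCS family of feedback inhibitors of JAK kinases had members that rose and 1 that overlapped between times. *Socs1* was at 17.3, 21.2, and 11.4 normalized RPKM at 0 hr in the *Stat5a* line and at 19.8, 14.1, and 13.0 in the *Stat5b* line. It reached 98.3 and 110 at 4 hr in the *Stat5a* line and at 121.7, 128.1, and 149.5 in the *Stat5b* line, a log2 fold change of 2.90 ± 0.18 (SE; adjusted p = 2.88e-07, edgeR). *Socs3* had a median of 77.2 at 0 hr and 84.3 at 4 hr, its libraries overlapped, and its log2 fold change was 0.02 ± 0.15 (adjusted p = 0.915). *Socs2* rose from a median of 1.94 to 5.71, a log2 fold change of 1.59 ± 0.12.

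*Cish*, a further feedback inhibitor of STAT5 signaling, was at 12.1, 12.4, and 4.56 normalized RPKM at 0 hr in the *Stat5a* line and at 6.09, 5.08, and 6.36 in the *Stat5b* line. The 4 hr values were 58.0 and 57.8 in the *Stat5a* line and at 65.1, 58.8, and 55.3 in the *Stat5b* line. The groups did not overlap, and replicates 1 and 2 of the *Stat5a* line were the highest of the 0 hr libraries. The log2 fold change was 3.01 ± 0.27 (SE; adjusted p = 8.86e-06, edgeR), and 3.43 over the 8 libraries.

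Survival and cell cycle genes of this list also rose. *Bcl2*, which inhibits apoptosis, went from a median of 33.2 to 144.1 normalized RPKM (lowest and highest 29.0 and 42.9 at 0 hr, 135.4 and 147.5 at 4 hr), a log2 fold change of 2.06 ± 0.08 (adjusted p = 1.21e-10, edgeR). *Bcl2l1*, which encodes BCL-XL, had a log2 fold change of 1.01 ± 0.07. *Cdk6*, the kinase that pairs with D cyclins early in G1, rose from a median of 7.28 to 26.8, with a log2 fold change of 1.90 ± 0.07, and *Ccnd2*, which encodes cyclin D2, had a log2 fold change of 1.04 ± 0.06, and of 0.99 (not called) over the 8 libraries with fewer B cell transcripts. The PIM kinases, which promote survival and growth, moved in different ways. *Pim2* rose with a log2 fold change of 1.56 ± 0.08, *Pim3* fell by 2.04 on the log2 scale (SE 0.10), and *Pim1*, the most abundant gene of the list, had overlapping libraries with medians of 233 and 223 (log2 fold change −0.28 ± 0.24, adjusted p = 0.314).

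**Figure D1:**
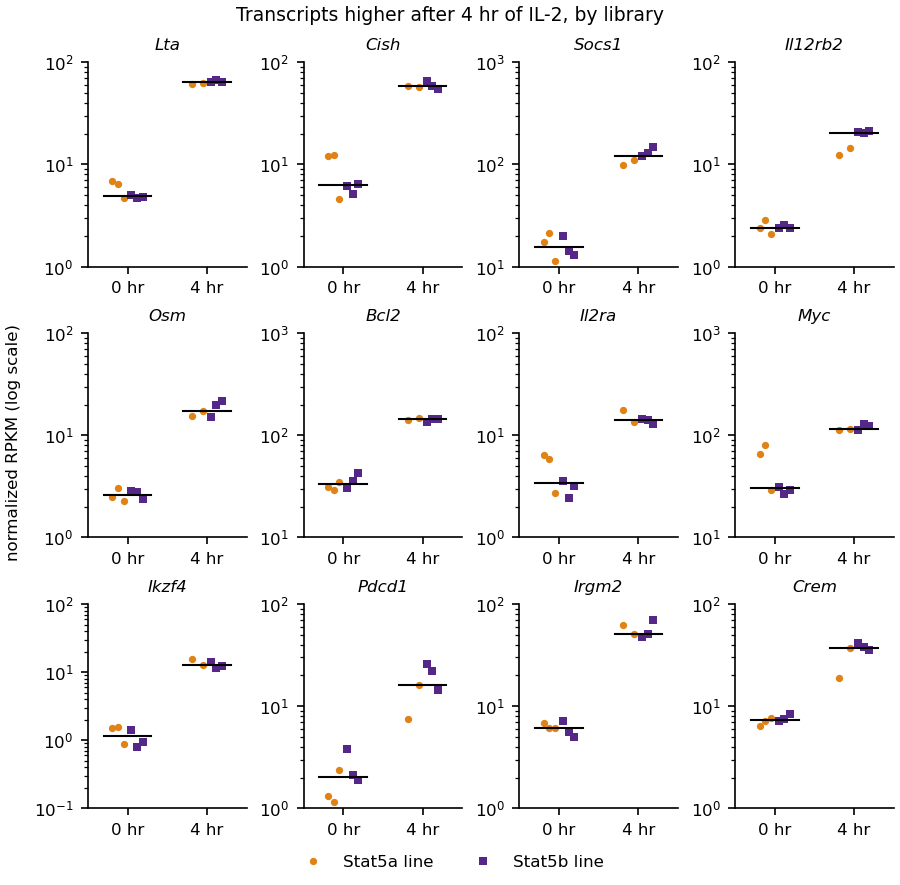
Levels of 12 transcripts higher at 4 hr in each of the 11 WT libraries, as normalized RPKM on a log axis, with circles for the *Stat5a* line, squares for the *Stat5b* line, and a bar at the median of each time. The 4 hr libraries lie above all 0 hr libraries in each panel, as they do for 26.4% of all genes tested, and replicates 1 and 2 of the *Stat5a* line are the highest at 0 hr for *Cish*, *Il2ra*, and *Myc*.

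The promoters of several of these genes hold the letters of a GAS motif, the kind of site that STAT dimers bind. The sequences come from RefSeq (GRCm38.p6) and are read on the strand of the gene, with each match to TTCNNNGAA in capitals. The letters read the same on both strands, and in these stretches the matches do not overlap those of the other motifs searched. The stretch of *Cish* is chr9:107296644-107296693 (plus strand) and holds a pair of matches close to the annotated start. Those of *Il12rb2*, chr6:67376288-67376326 (minus strand), *Irgm2*, chr11:58214887-58214925 (plus strand), and *Gm12250*, chr11:58183767-58183805 (plus strand), hold 1 match each. Of the 12 genes with the largest rise, 9 had a promoter in the table and 5 of these held a match. The sequences of 4 are shown, and *Lta*, whose pair of matches lies too far apart for a short stretch, is the other.
Cish: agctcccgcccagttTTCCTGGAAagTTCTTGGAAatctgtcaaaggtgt
Il12rb2: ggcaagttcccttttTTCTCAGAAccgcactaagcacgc
Irgm2: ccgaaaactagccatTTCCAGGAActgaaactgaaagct
Gm12250: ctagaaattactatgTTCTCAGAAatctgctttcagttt
A promoter of 300 bases, from 250 before to 50 after the start, was found for 10415 of the 14290 genes tested, and 8.54% of these genes held TTCNNNGAA. Some genes have several promoters, and such a gene was counted once, if any of them held the letters. The share was 14.0% for genes called higher (99 of 708) and 8.9% for genes called lower (104 of 1168). Of the STAT5 target list, 5 of 16 genes with a promoter held it. The cyclic AMP response element letters TGACGTCA also read alike on both strands. Of genes with a promoter, 3.81% of those called higher, 2.65% of those called lower, and 3.44% of all held them. The E-box letters CACGTG, to which MYC and MAX bind, were held by 9.46%, 10.7%, and 11.3% of these genes, respectively. A match to letters is a description of the sequence, and no binding was measured at these sites here.

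Of the IL-2 receptor chains, IL-2Rα changed most. *Il2ra*, which encodes the IL-2Rα chain, was at 6.41, 5.92, and 2.70 normalized RPKM at 0 hr in the *Stat5a* line and at 3.61, 2.44, and 3.19 in the *Stat5b* line. It was at 17.9 and 13.6 at 4 hr in the *Stat5a* line and at 14.6, 14.1, and 12.9 in the *Stat5b* line, a log2 fold change of 1.94 ± 0.23 (SE; adjusted p = 4.41e-05, edgeR), and 2.21 over the 8 libraries. The other IL-2 receptor chains started much higher and moved little. *Il2rb* had a median of 208 at 0 hr and 310 at 4 hr with overlapping libraries, all those of the *Stat5b* line being above those of the *Stat5a* line at each time, and a log2 fold change of 0.46 ± 0.06 (adjusted p = 1.11e-05). *Il2rg* had medians of 322 and 326 and a log2 fold change of 0.06 ± 0.05 (adjusted p = 0.361). Of 9 common γ chain family receptors, 1 (11.1%) was called higher, *Il2ra*, and 1 lower (11.1%), beside 6.67% and 12% of all genes. The gene called lower was *Il21r*, the IL-21 receptor, with a log2 fold change of −1.27 ± 0.04.

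Of 11 receptors of the gp130, IL-12, and IL-18 families tested, 3 (27.3%) were called higher and 2 (18.2%) lower. The shares of all genes were 6.67% and 12%. Over the 8 libraries 4 were called higher and 2 lower, and limma on log2(RPKM + 1) called 3 higher and none lower. *Il12rb2*, the signaling chain of the IL-12 receptor, was between 2.09 and 2.89 normalized RPKM at 0 hr. At 4 hr it was at 12.4 and 14.5 in the *Stat5a* line and at 20.5, 20.3, and 21.4 in the *Stat5b* line, so that the lines did not overlap at 4 hr. The log2 fold change was 2.80 ± 0.12 (SE; adjusted p = 3.68e-10, edgeR), or 2.45 (*Stat5a* line) and 3.08 (*Stat5b* line) (adjusted p of the difference 0.774). Its partner chain *Il12rb1* fell, with a log2 fold change of −1.23, from a median of 5.11 to 2.12. The IL-10 receptor chains *Il10ra* and *Il10rb* rose by 1.11 and 1.04 on the log2 scale, and *Lifr*, the LIF receptor, fell by 2.10 on that scale.

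Among 11 JAK and STAT genes, 2 (18.2%) were called higher and 1 (9.09%) lower, against 6.67% and 12% of all genes. Over the 8 libraries, 1 was called higher and 1 lower. *Stat4*, which carries the IL-12 signal, rose from a median of 47.7 to 121.95 normalized RPKM (log2 fold change 1.29 ± 0.06, adjusted p = 1.28e-10, edgeR). *Jak3*, the kinase bound to the γ chain, fell from a median of 49.0 to 19.6 (log2 fold change −1.32 ± 0.10). *Stat5b* rose less than 2-fold in all libraries, from 35.3 to 41.2 at 0 hr to 53.9 to 65.0 at 4 hr, with a log2 fold change of 0.62 ± 0.04 (adjusted p = 1.55e-08). *Stat5a* was between 28.6 and 30.6 at 0 hr and between 24.9 and 27.1 at 4 hr, a log2 fold change of −0.18 ± 0.04 (adjusted p = 0.000609).

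Of 12 genes of the MYC network, *Myc* alone (8.33%) was called higher, and *Mycl* and *Mycn* (16.7%) were called lower. The shares of all genes were 6.67% and 12%. *Myc*, a transcription factor that drives cell growth, was at 65.1, 80.6, and 29.0 normalized RPKM at 0 hr in the *Stat5a* line and at 31.4, 26.5, and 29.3 in the *Stat5b* line. At 4 hr it was at 112.3 and 114.95 in the *Stat5a* line and at 113.1, 130.2, and 124.3 in the *Stat5b* line. The 4 hr libraries were alike and all above those at 0 hr, whereas replicates 1 and 2 of the *Stat5a* line at 0 hr were over 2-fold higher than the other 4. The log2 fold change was 1.59 ± 0.30 (SE; adjusted p = 0.00125, edgeR), and 2.05 over the 8 libraries, where 1 gene of the list was called lower. *Mycl*, its relative, fell from a median of 6.29 to 1.42. *Mycn* had at most 26 reads in a library, and was not called without replicate 3 of the *Stat5a* line at 4 hr (log2 fold change −1.16, adjusted p = 0.0703).

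Of 21 cytokines and TNF family ligands tested, 7 (33.3%) were called higher and 6 (28.6%) lower, against 6.67% and 12% of all genes, with a median log2 fold change of 0.26. With limma on log2(RPKM + 1), 6 of 15 were higher and 2 lower, with a median of 0.70. Besides *Lta*, the genes called higher in the main fit were *Osm*, *Tnfsf8*, *Tnf*, *Lif*, *Tnfsf4*, and *Fasl*. *Osm*, which encodes oncostatin M of the IL-6 family, was between 2.26 and 3.08 normalized RPKM at 0 hr and between 15.2 and 21.6 at 4 hr (log2 fold change 2.75 ± 0.11, adjusted p = 5.16e-11, edgeR). *Tnf* rose from a median of 6.57 to 24.8 (log2 fold change 1.79 ± 0.25) and *Tnfsf8*, the CD30 ligand, from 12.4 to 69.9 (log2 fold change 2.52 ± 0.10). *Lif*, of the IL-6 family too, stayed near 1 at 4 hr (median 0.943, from 0.233) and its libraries overlapped.

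*Ifng*, the interferon γ gene and a main product of activated CD8+ T cells, fell. It was at 10.9, 10.8, and 12.5 normalized RPKM at 0 hr in the *Stat5a* line and at 12.8, 16.6, and 15.5 in the *Stat5b* line. It was at 2.29 and 1.45 at 4 hr in the *Stat5a* line and at 2.20, 3.11, and 2.83 in the *Stat5b* line. The log2 fold change was −2.52 ± 0.13 (SE; adjusted p = 4.9e-10, edgeR), without overlap. The inflammatory chemokine genes *Ccl4*, *Ccl3*, and *Xcl1* fell with it, with log2 fold changes of −2.76, −2.48, and −2.09. Of 18 chemokine and receptor genes, 5 (27.8%) were called lower and 2 (11.1%) higher, against 12% and 6.67% of all genes. Of the 2 called higher, *Cxcr3*, a receptor of effector T cells, had a log2 fold change of 1.15.

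Of 14 granule and killing genes tested, *Gzmb*, *Gzmc*, and *Fasl* (21.4%) were called higher and *Gzmm* (7.14%) lower. The shares of all genes were 6.67% and 12%. *Gzmb*, the granzyme B protease, was at 6.18, 6.69, and 12.9 normalized RPKM at 0 hr in the *Stat5a* line and at 7.04, 11.9, and 15.7 in the *Stat5b* line. At 4 hr it was at 30.8 and 38.1 in the *Stat5a* line and at 26.8, 57.0, and 60.9 in the *Stat5b* line. The spread within a group was wide but the times did not overlap, and the log2 fold change was 2.03 ± 0.31 (SE; adjusted p = 0.000296, edgeR). *Gzmc* had medians of 0.145 and 0.263, and was not called without replicate 2 at 0 hr or replicate 3 at 4 hr of the *Stat5b* line (log2 fold change 0.97 and 0.99).

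Of 20 costimulatory and inhibitory receptors, 8 (40%) were called lower and 3 (15%) higher, against 12% and 6.67% of all genes. *Pdcd1*, which encodes the inhibitory receptor PD-1, varied widely between libraries at each time. It was at 1.31, 1.14, and 2.36 normalized RPKM at 0 hr in the *Stat5a* line and at 3.85, 2.14, and 1.87 in the *Stat5b* line, and reached 7.47 and 16.1 in the *Stat5a* line and at 25.7, 22.3, and 14.2 in the *Stat5b* line. Its log2 fold change was 2.93 ± 0.31 (SE; adjusted p = 1.81e-05, edgeR). *Tnfrsf18*, the GITR receptor, rose from a median of 33.6 to 226 (log2 fold change 2.70 ± 0.09), and *Tnfrsf9*, the receptor 4-1BB, from 6.98 to 25.8. *Cd69*, an early activation marker that retains T cells in tissue, was at 630, 701, and 211 at 0 hr in the *Stat5a* line and at 275, 206, and 225 in the *Stat5b* line, and at 40.9 to 62.0 at 4 hr (log2 fold change −2.74 ± 0.39, adjusted p = 0.000214, and −2.20 over the 8 libraries). *Cd28*, *Ctla4*, *Lag3*, and *Havcr2* fell by 1.88, 1.87, 1.27, and 1.21 on the log2 scale, and *Cd160*, a receptor of NK and CD8+ T cells, fell by 3.55.

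Of 30 interferon-stimulated genes tested, 4 (13.3%) were called higher and 7 (23.3%) lower, against 6.67% and 12% of all genes, with a median log2 fold change of −0.53. With DESeq2's size factors 3 were called higher, and over the 8 libraries with fewer B cell transcripts 3 were higher and 6 lower. With limma on log2(RPKM + 1), 4 of 28 were higher and 3 lower, and their median was −0.21, against 0.18 for all genes. Those higher in the main fit included *Gbp5*, *Gbp2*, and *Gbp4*. The 7 called lower in it were *Mx2*, *Oas2*, *Ifi44*, *Mx1*, *Rsad2*, *Bst2*, and *Oas1a*, most of which are known for their induction by type I interferon. *Gbp5*, a guanylate-binding protein of cell-autonomous defence, rose from a median of 6.78 to 29.7 normalized RPKM (log2 fold change 2.21 ± 0.12, adjusted p = 1.15e-08, edgeR). *Mx2*, an antiviral GTPase, was between 1.27 and 3.96 at 0 hr and between 0.146 and 0.263 at 4 hr (log2 fold change −3.42 ± 0.34). The immunity-related GTPase genes *Gm12250*, *Irgm2*, and *Iigp1* were among the 12 largest rises. They are not in the list of 30 genes, so its counts and median do not cover them. *Irgm2* was between 4.95 and 7.18 at 0 hr, and at 62.4, 50.5, 47.2, 50.8, and 69.7 at 4 hr, a log2 fold change of 3.20 ± 0.13 (adjusted p = 2.14e-09). At 4 hr, replicate 1 of the *Stat5a* line and replicate 3 of the *Stat5b* line were the highest for *Irgm2*, *Gm12250*, *Iigp1*, and *Gbp2* alike.

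Other genes among the 12 largest rises had varied roles. *Ikzf4*, which encodes the transcription factor Eos of the Ikaros family, was between 0.783 and 1.54 normalized RPKM at 0 hr and between 11.6 and 15.4 at 4 hr, a log2 fold change of 3.53 ± 0.17 (adjusted p = 4.51e-09, edgeR). *Ecm1*, a secreted extracellular matrix protein, rose from a median of 4.63 to 43.3 (log2 fold change 3.25 ± 0.10), *Mettl20*, a mitochondrial methyltransferase, from 3.77 to 29.5 (3.01 ± 0.06), and *Pgpep1l*, a predicted peptidase, from 2.32 to 18.9 (2.96 ± 0.11). Among 25 effector and memory transcription factors, *Ikzf4* and *Zeb1* (8%) were called higher and 6 (24%) lower, against 6.67% and 12% of all genes. Of those lower, *Batf3* and *Nfil3* had the largest log2 fold changes at −3.06 and −1.94. Over the 8 libraries, 3 of these factors were called higher and 6 lower. Of 24 genes of quiescence and lymphoid homing, 3 (12.5%) were called higher and 3 (12.5%) lower, against 6.67% and 12% of all genes. *Slfn1* and *Slfn2*, of the Schlafen family linked to T cell quiescence, rose from medians of 41.8 to 252 and of 88.5 to 328, and *Foxo1*, which maintains naive T cells, fell from 79.7 to 35.6. The other gene of this list called higher was *Foxp3*, the defining factor of regulatory T cells. Over the 8 libraries with fewer B cell transcripts, 3 genes of the list were called higher and 1, *Foxo1*, was called lower (log2 fold change −1.12). With limma on log2(RPKM + 1), 4 genes of the list were higher and none lower.

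Immediate early transcription factors made up 6 of the 12 largest falls. Of 24 immediate early transcription factors, 19 (79.2%) were called lower and 1 (4.17%) higher, against 12% and 6.67% of all genes. Their median log2 fold change was −1.97. The 8 libraries with fewer B cell transcripts gave the same counts, 19 and 1. *Fos* was at 204, 314, and 272 normalized RPKM at 0 hr in the *Stat5a* line and at 298, 283, and 284 in the *Stat5b* line, and at 7.04 and 5.55 at 4 hr in the *Stat5a* line and at 9.76, 6.79, and 5.69 in the *Stat5b* line. Its log2 fold change was −5.32 ± 0.17 (SE; adjusted p = 7.51e-10, edgeR). *Fosb* fell by 5.91 (SE 0.47) on the log2 scale, from between 118.7 and 413 to between 1.76 and 4.78. *Jun*, the partner of FOS proteins in AP-1, fell by 3.49 (SE 0.14), and *Junb*, the most abundant gene of the list, from a median of 946 to 105.9. *Klf4*, a factor that restrains T cell division, fell from a median of 41.6 to 1.61, and *Atf3*, a stress-induced factor, from 36.1 to 2.43. Replicate 2 of the *Stat5a* line at 0 hr was the highest for *Fos*, *Fosb*, *Jun*, *Klf4*, and *Atf3*.

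*Crem*, which encodes cyclic AMP responsive modulators of transcription, was the only gene of the immediate early list called higher. It was between 6.41 and 8.30 normalized RPKM at 0 hr. At 4 hr it was at 18.7 and 37.3 in the *Stat5a* line and at 41.7, 38.2, and 35.5 in the *Stat5b* line, with replicate 1 of the *Stat5a* line the lowest. The log2 fold change was 2.17 ± 0.16 (SE; adjusted p = 7.91e-07, edgeR).

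A list of inducible phosphatases, mRNA decay factors, and some other genes fell in larger share than any other of the 31 lists. The other genes included *Gadd45g* and the kinase gene *Sik1*. The lists were chosen with earlier results of these data known, so this ranking is not independent evidence. Of the 19 genes of the list, 17 (89.5%) were called lower and none higher, against 12% and 6.67% of all genes. The median log2 fold change was −2.07. Over the 8 libraries with fewer B cell transcripts, 15 were called lower and 1 higher. *Dusp1*, a phosphatase that inactivates MAP kinases, was between 208 and 282 normalized RPKM at 0 hr and between 12.2 and 16.6 at 4 hr (log2 fold change −4.07 ± 0.11, adjusted p = 1.04e-11, edgeR). *Zfp36*, which binds AU-rich mRNAs and speeds their decay, fell from a median of 296 to 74.0, and its relative *Zfp36l2* from 520 to 154. *Sik1*, a kinase induced by cyclic AMP, and *Ppp1r15a*, which reverses the stress block of translation, fell by 3.53 and 3.42 on the log2 scale. The promoters of *Dusp1* and *Ppp1r15a* hold the cyclic AMP response element letters, shown in capitals as for the GAS motif. They lie at chr17:26508578-26508630 and chr7:45526258-45526295, both on the minus strand, and the second stretch of capitals of *Dusp1* is an E-box.
Dusp1: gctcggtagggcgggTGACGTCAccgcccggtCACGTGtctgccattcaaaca
Ppp1r15a: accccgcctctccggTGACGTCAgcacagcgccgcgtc
Of the 19 genes of this list, 16 had a promoter, 3 of these held TGACGTCA, and 4 held CACGTG.

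**Figure D2:**
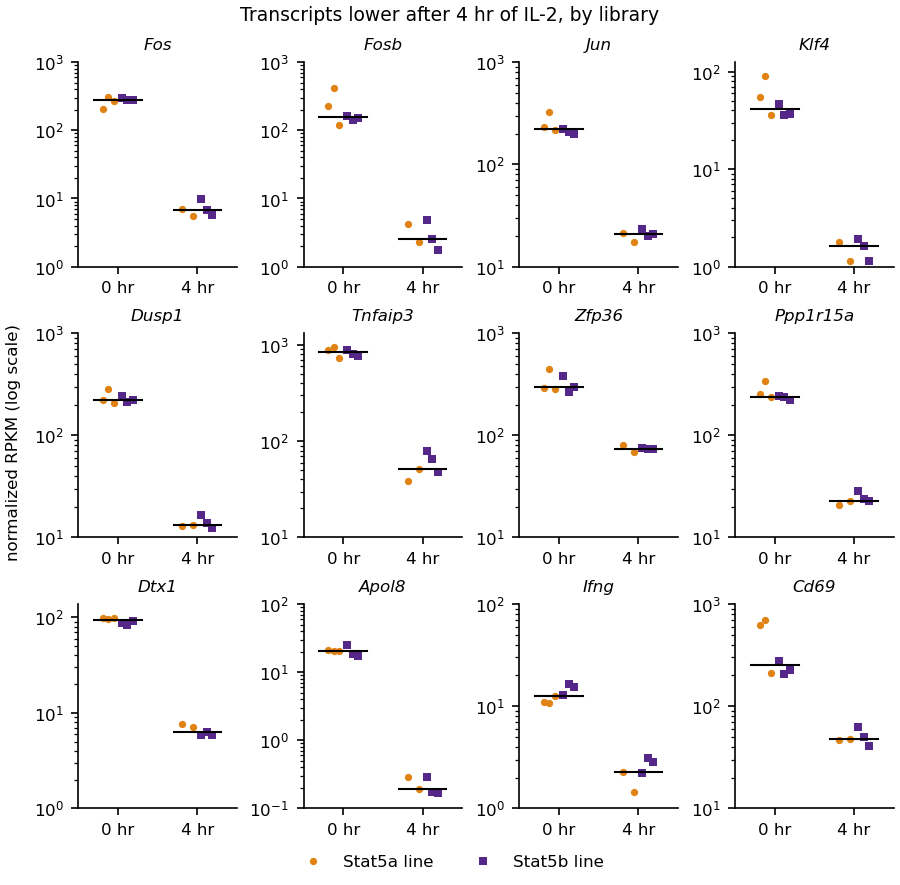
Levels of 12 transcripts lower at 4 hr in each of the 11 WT libraries, as normalized RPKM on a log axis, with circles for the *Stat5a* line, squares for the *Stat5b* line, and a bar at the median of each time. All 4 hr libraries lie below all 0 hr libraries in each panel, as they do for 23.6% of all genes tested, and *Cd69* at 0 hr is highest in replicates 1 and 2 of the *Stat5a* line.

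Of 14 NF-kB subunits and inhibitors, 5 (35.7%) were called lower and 1 (7.14%) higher, against 12% and 6.67% of all genes, with a median log2 fold change of −0.09, and 4 were lower over the 8 libraries. *Tnfaip3*, which encodes the ubiquitin-editing enzyme A20, was between 740 and 946 normalized RPKM at 0 hr and between 38.8 and 79.9 at 4 hr (log2 fold change −3.92 ± 0.18, adjusted p = 8.37e-09, edgeR). *Nfkbia*, which encodes the inhibitor IκBα, fell from a median of 457 to 148.4. The gene called higher was *Bcl3*, an atypical IκB protein, from a median of 11.1 to 42.1 (log2 fold change 1.87 ± 0.07).

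Of 22 heat shock proteins and co-chaperones, 8 (36.4%) were called lower and none higher, against 12% and 6.67% of all genes. Their median log2 fold change was −0.75. *Hspa5*, the chaperone BiP of the endoplasmic reticulum, fell from a median of 418 to 113.9 (log2 fold change −1.98 ± 0.13). *Hspa1a* was between 2.31 and 50.2 at 0 hr, with replicate 2 of the *Stat5a* line the highest and replicate 1 of the *Stat5b* line the lowest, and between 0.944 and 2.03 at 4 hr. *Hspa1a* and *Hspa1b* are near-identical copies, and how reads were assigned between them was not tested. Over the 8 libraries with fewer B cell transcripts, 6 genes of this list were called lower.

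*Dtx1* and *Apol8* belonged to no list and were among the 12 largest falls. *Dtx1*, a ubiquitin ligase of the Notch pathway, was between 83.9 and 98.5 normalized RPKM at 0 hr and between 5.79 and 7.59 at 4 hr, with little spread at either time (log2 fold change −3.81 ± 0.05, adjusted p = 7.89e-16, edgeR). *Apol8*, of the apolipoprotein L family, was between 17.3 and 25.1 at 0 hr and between 0.166 and 0.292 at 4 hr, with at most 26 reads in a 4 hr library (log2 fold change −6.49 ± 0.16).

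Each list of genes of cell division and biosynthesis had at most 4 genes called, where 6.67% of all genes were called higher and 12% lower. Among 24 cyclins, CDKs, and inhibitors, *Cdk6* and *Ccnd2* were called higher, and *Ccnd1*, which encodes cyclin D1, and the inhibitor *Cdkn1c* were called lower. *Ccnd1* fell from a median of 6.71 to 1.28 normalized RPKM, and *Cdkn1c* was not called without replicate 3 of the *Stat5a* line at 4 hr (log2 fold change −0.97). None of 10 E2F and DP factors was called. *E2f1* and *E2f2* fell less than 2-fold, by 0.68 and 0.74 on the log2 scale, and *E2f3* had a log2 fold change of 0.52. Of 41 DNA replication genes, *Pole2* was called higher, from a median of 7.92 to 18.3, and *Orc1*, *Cdc6*, and *Tk1* were called lower.

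No gene was called among 61 genes of ribosome biogenesis and RNA polymerase I, 48 cytosolic ribosomal proteins, 37 proteasome subunits, and 22 genes of purine and pyrimidine synthesis. Their median log2 fold changes were −0.08, −0.25, 0.08, and −0.03, respectively. The ribosomal proteins had the narrowest spread, and 47 of the 48 had an adjusted p of at most 0.05 with a lower level at 4 hr. On the log2(RPKM + 1) scale their median was −0.09, against 0.18 for all genes. Of 20 aminoacyl-tRNA synthetases, *Wars* was called higher, of 34 translation initiation factors, *Eif1* was called lower (median 965 to 350), and of 15 serine, glycine, and one-carbon enzymes, *Amt* was called higher, but not with limma, all 48 libraries, or the left-out library added (log2 fold change 0.54, 0.94, and 0.91). Among 14 amino acid transporters, *Slc7a11* was called higher (median 0.0818 to 0.358) and *Slc3a2* and *Slc38a2* lower. *Slc38a2* lost its call in 5 of the alternatives, including without replicate 3 of the *Stat5a* line at 4 hr or replicate 1 of the *Stat5b* line at 0 hr, over the 8 libraries, or with limma (log2 fold change −0.99, −0.97, −0.97, and −0.86).

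Of 22 glycolysis and lactate genes, 4 (18.2%) were called lower and none higher, against 12% and 6.67% of all genes. Their median log2 fold change was −0.42, and none was called on the log2(RPKM + 1) scale. The 4 included the glucose transporter genes *Slc2a1* and *Slc2a3*, which fell from medians of 42.1 to 19.8 and of 21.2 to 10.1 normalized RPKM, with *Hk2* and *Aldoc*. Of 28 genes of sterol and fatty acid synthesis, *Idi1* was called higher (log2 fold change 1.01) and *Scd1* lower (−1.11). Over the 8 libraries with fewer B cell transcripts neither was called (0.96 and −0.90). *Idi1* was also not called without replicate 1 of the *Stat5a* line at 0 or 4 hr, replicate 2 of the *Stat5b* line at 0 hr, or replicate 3 of that line at 4 hr (0.95 to 1.00), nor *Scd1* without replicate 2 at 0 hr or 3 at 4 hr of the *Stat5a* line (−0.94 and −0.87). In all, *Idi1* lost its call in 6 of the alternatives and *Scd1* in 7, which for *Scd1* include the replicate block. Of 16 BCL2 family genes, *Bcl2*, *Bcl2l11*, and *Bcl2l1* were called higher, and *Pmaip1* and *Bbc3* lower. *Bcl2l11*, which encodes the pro-apoptotic protein BIM, had a log2 fold change of 1.43 ± 0.07, and *Pmaip1* and *Bbc3*, which encode the pro-apoptotic proteins NOXA and PUMA, had log2 fold changes of −1.60 and −1.21. Of 20 genes of the TCR complex and its proximal signaling, *Lat* was called lower and none higher.

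**Figure D3:**
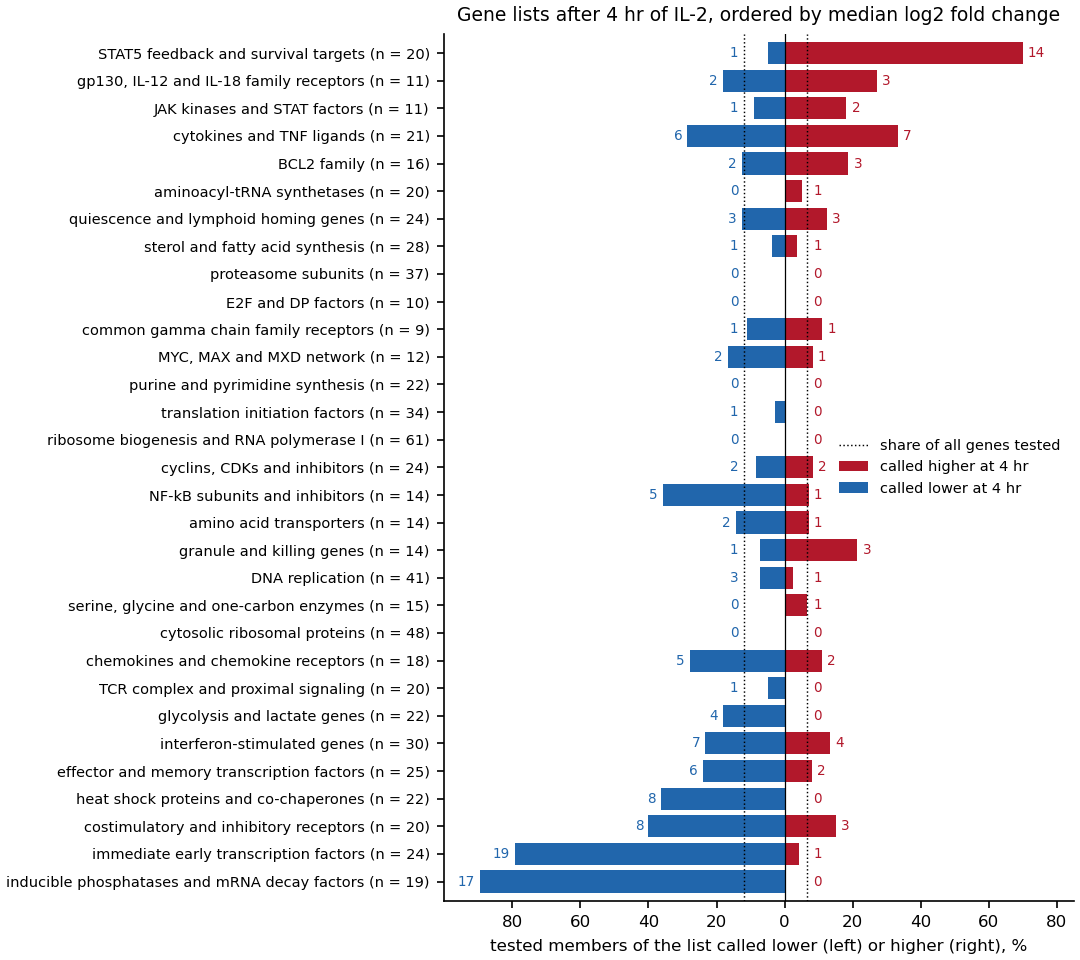
Share of the tested members of each of the 31 gene lists called higher (right) or lower (left) at 4 hr, in percent, with the number of genes beside each bar and dotted lines at the shares of all genes tested, 6.67% and 12%. STAT5 targets (14 of 20 higher), immediate early factors (19 of 24 lower), and the list with inducible phosphatases and mRNA decay factors (17 of 19 lower) lie farthest from the dotted lines. The lists were chosen with earlier results of these data known.

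A list of 35 genes that have been discussed for these same libraries, and so are not independent evidence, held 16 called higher at 4 hr, 2 called lower, and 17 not called. Of all genes tested, 6.67% were called higher and 12% lower. Those called higher included *Mov10*, an RNA helicase, from a median of 8.78 to 53.6 normalized RPKM (log2 fold change 2.49 ± 0.07, adjusted p = 4.08e-12, edgeR). *Slc30a4*, a zinc transporter, and *Spdl1*, a mitotic spindle protein, had log2 fold changes of 1.57 ± 0.08 and 1.55 ± 0.10. The 2 called lower were *Ifng* and *Scd1*, and *Scd1* lost its call in 7 of the alternatives.

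Markers of other blood cells were present and moved with time. The CD8 T cell markers *Cd3d*, *Cd3e*, *Cd3g*, *Cd8a*, *Cd8b1*, and *Lck* were high in all libraries and none of the 6 was called, although 5 had an adjusted p of at most 0.05 with a lower level at 4 hr. *Cd8a* was between 220 and 312 normalized RPKM at 0 hr and between 244 and 292 at 4 hr. The summed level of these markers was between 1780 and 2215 at 0 hr and between 1407 and 1756 at 4 hr. Of 12 B cell markers, 7 (58.3%) were called lower and none higher, against 12% and 6.67% of all genes. The median log2 fold change of the 12 was −1.11, and limma on log2(RPKM + 1) called 3 of them lower. Their summed level was between 1017 and 1860 at 0 hr and between 410 and 633 at 4 hr, most of it from the class II genes *H2-Aa* and *H2-Ab1*, which other antigen-presenting cells also express. Besides these class II genes, those called lower were *Ms4a1*, *Pax5*, *Cr2*, *Fcer2a*, and *Cd22*. *Ms4a1* and *Pax5* lost their calls in 9 and 10 of the alternatives. *Cd79a*, which marks B cells alone, had a log2 fold change of −0.61 ± 0.38 and was not called (adjusted p = 0.18, edgeR).

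Of 17 myeloid cell markers, 16 (94.1%) were called lower and none higher, against 12% and 6.67% of all genes. The median log2 fold change of the 17 was −1.86. Their summed level was between 163 and 307 normalized RPKM at 0 hr and between 57.1 and 79.8 at 4 hr, and, over the 8 libraries with fewer B cell transcripts, 14 were called lower. The most abundant was *Tyrobp*, an adaptor of myeloid and NK cells, whose median went from 60.4 to 18.5. *C1qc*, a complement gene of macrophages, went from a median of 3.51 to 0.339. Of 7 NK cell markers, 3 (42.9%) were called lower (2 over the 8 libraries) and 1 (14.3%) higher, with a median log2 fold change of 0.02. *Tyrobp* was the most abundant of them, and the other 6 summed to between 13.4 and 24.5 normalized RPKM at 0 hr and between 15 and 31.1 at 4 hr, with overlap. *Klrb1b* was the NK cell marker called higher, at a log2 fold change of 1.36 ± 0.22. Of 4 CD4 T cell markers, 2 (50%) were called lower and 1 (25%) higher. None of 8 erythroid markers was called, and of 4 platelet markers *Ppbp* (25%) was called lower. The CD4 T cell marker called higher was again *Foxp3*, with a log2 fold change of 1.18 ± 0.18 and a median of 2.24 at 0 hr and 4.66 at 4 hr, while *Cd4* itself went from 9.70 to 5.21. *Cd4* lost its call in 7 of the alternatives, including without replicate 2 at 0 hr or 3 at 4 hr of the *Stat5a* line, or over the 8 libraries (log2 fold change −0.92, −0.91, and −0.90). The part of these cells in the falls described above was not tested.

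**Figure D4:**
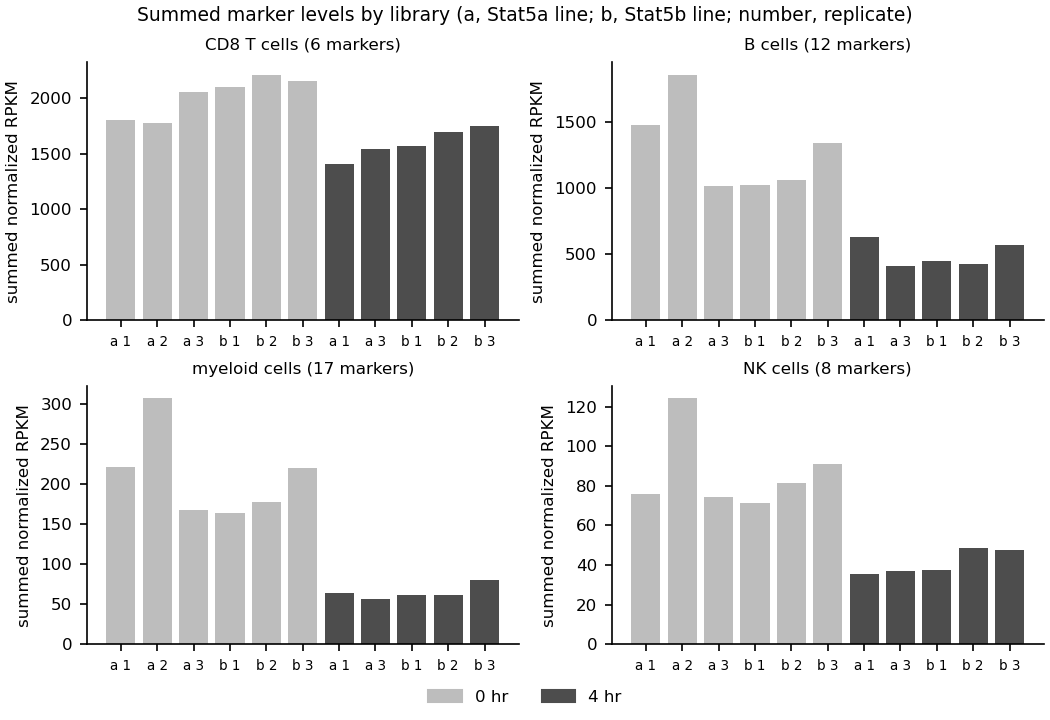
Summed normalized RPKM of the markers of CD8 T cells, B cells, myeloid cells, and NK cells in each of the 11 WT libraries, with 0 hr in light grey and 4 hr in dark grey. All 4 sums are lower in every 4 hr library than in every 0 hr library, and that of NK cell markers overlaps between the times without *Tyrobp*.

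The 2 lines share no library, so each gives its own estimate of the response. The *Stat5a* line gave 965 genes called higher (6.75%) and 1724 called lower (12.1%). The *Stat5b* line gave 914 (6.4%) and 1445 (10.1%). Called higher in both were 738 genes, 76.5% of those of the *Stat5a* line and 80.7% of those of the *Stat5b* line. Called lower in both were 1237, or 71.8% and 85.6%, and no gene was called in opposite directions. Of the 1141 genes called higher in either line, 1131 had a fold change of the same sign in both, as had 1906 of the 1932 called lower. Across the 14290 genes, which are not independent, the log2 fold changes of the lines had a Pearson r of 0.896, and 0.967 over the 5753 genes with an RPKM of at least 10. The median absolute difference of the log2 fold changes was 0.139, and 0.0927 over those 5753 genes.

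**Figure D5:**
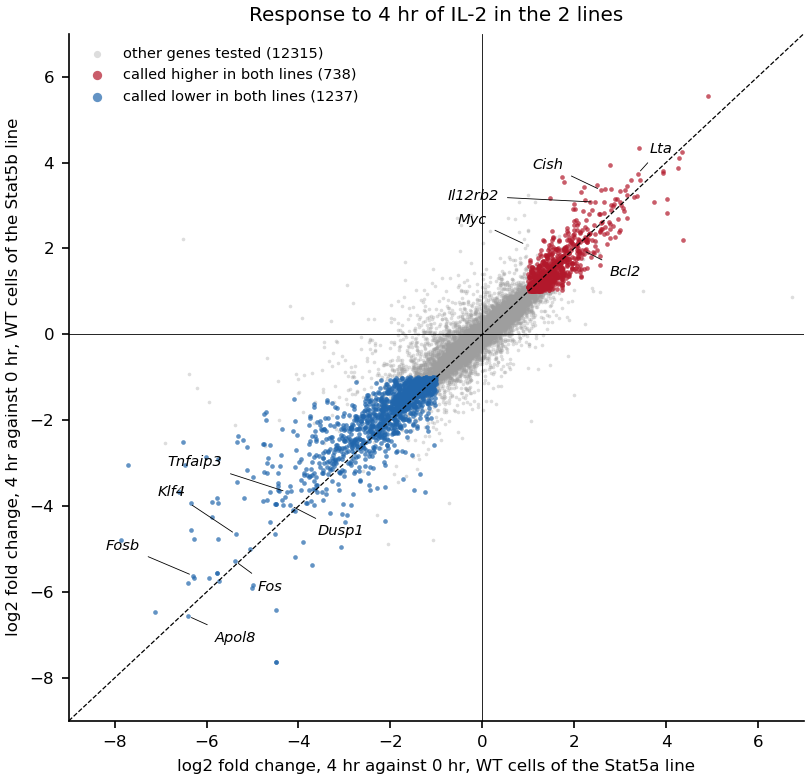
Log2 fold change of each of the 14290 genes at 4 hr against 0 hr in the *Stat5a* line (horizontal) and the *Stat5b* line (vertical), with genes called higher in both in red (738), called lower in both in blue (1237), and a dashed line at equal change. The genes called in both lie along the dashed line, and *Myc* and *Cish* lie above it.

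A test of the line by time interaction called no gene (0%), with the smallest adjusted p at 0.774, and 904 genes (6.33%) had an unadjusted p under 0.05. DESeq2 gave an adjusted p of at most 0.05 to 10 genes in this test, none of them with a 2-fold difference. Several genes had larger changes in the *Stat5b* line, where the 0 hr level was lower. *Myc* had a log2 fold change of 0.97 (*Stat5a* line) and 2.08 (*Stat5b* line, adjusted p of the difference 0.777), *Cish* 2.59 and 3.35 (0.821), and *Tnf* 1.33 and 2.16 (0.78). For *Cd69* the changes were −3.44 and −2.21 (0.777). Without replicate 3 of the *Stat5a* line at 0 hr, whose levels of these genes were like those of the *Stat5b* line, 39 genes were called, among them *Myc*, *Cish*, *Cd69*, and *Pim1*. Without the 3 libraries with more *Cd79a*, 1 library of the *Stat5a* line was left at each time and was assumed to vary like those of the *Stat5b* line. No gene was then called, and 362 had an unadjusted p under 0.05, a count not set against the 39 because of these single libraries.

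The same genes were followed in the 12 WT libraries at 24 and 48 hr, with normalization over all 23 WT libraries used, as a description without a test. *Ikzf4* averaged 12.9 ± 1.45 normalized RPKM (SD, n = 5) at 4 hr, 5.43 ± 0.456 (n = 6) at 24 hr, and 3.86 ± 0.23 (n = 6) at 48 hr. *Pdcd1* averaged 16.7 ± 6.89 at 4 hr and 2.89 ± 1.26 and 3.49 ± 0.748 later, and *Crem* 33.4 ± 8.77 and then 3.79 ± 0.43 and 6.35 ± 1.7. These 3 genes were highest at 4 hr, with no overlap between its libraries and the later ones. *Lta* averaged 62.2 ± 1.83 at 4 hr, 78.5 ± 19.2 at 24 hr, and 106.5 ± 8.04 at 48 hr, and *Myc* 116.1 ± 7.56, 132.4 ± 13.1, and 121.3 ± 2.99, so both stayed high. *Gzmb* rose on, from 41.7 ± 14.9 at 4 hr to 1577 ± 294 at 48 hr. *Fos* stayed low, at 6.79 ± 1.62 at 4 hr and 0.886 ± 0.0931 at 48 hr. *Ifng*, which was at 2.32 ± 0.617 at 4 hr, reached 46.6 ± 22.5 at 24 hr and 72.4 ± 21.6 at 48 hr.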

How the data were processed

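RNA-seq was done on splenic CD8+ T cells. The authors made poly(A) libraries from total RNA, aligned the reads to mm10/GRCm38 and counted them for each RefSeq transcript. The submitters' processing notes name TopHat2 2.0.11, Bowtie2 2.2.6, SAMtools 0.1.8, bedtools 2.25.0, and edgeR, and whether counting used strand is not given in the sources used here. The deposited counts are raw read counts for each transcript. RPKM, the authors' division of these counts by transcript length and mapped reads, entered the limma fit, the ranking of genes, and the choice of the 5753 genes on which the lines were compared.

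The longest transcript represented each of 23992 symbols (19649 have 1 transcript), since isoforms share reads. edgeR 4.0.16 in R 4.3.3 was used with TMM, filterByExpr (minimum count 10), and the quasi-likelihood test, with line and time as terms. Responses of each line and their difference came from a fit with 1 mean for each line and time. A call required a p, adjusted over all genes tested by the Benjamini-Hochberg method, not above 0.05 and a 2-fold change. A count of 3 was taken as the floor, which corresponds to 0.0498 to 0.078 CPM, and covers counting error only. Standard errors were computed from the fold change and its F statistic. No 2 libraries of a group agreed within sampling noise (chi-square 8.07 to 53.8 per gene). On simulated counts of the 14290 genes, the test of 4 hr against 0 hr recovered 100% of the genes changed by a log2 fold of 1.5 or 3, and that of the difference between lines 94% and 97%. The changed genes, 100 of each size, were drawn from genes above a minimum read level, and all libraries shared the same baseline. Recovery of weakly expressed genes, or with baselines that differ between the 0 hr libraries, was not tested.

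Genes named in the text were those discussed for these libraries, the 12 largest rises and 12 largest falls among genes reaching a mean RPKM of 10, without overlap between times and called in both lines, up to 4 called genes and the most abundant gene of each list, and the cell type markers. Members and lists were chosen with earlier results of these data known, and other list members named were chosen after their values were seen. No gene was eligible as a difference between lines. Alternatives were DESeq2 1.42.0, its size factors in edgeR, limma 3.58.1 on log2(RPKM + 1) for genes reaching an RPKM of 1 in 3 libraries, no filter, no line term, the most counted transcript, all 48 libraries, the left-out library added, a replicate block, no fold threshold, each library left out, and, chosen after seeing the data, 3 libraries left out. Figures used matplotlib 3.10.9. Promoter sequences are those of RefSeq. Some genes counted in the lists are not reported by name here.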

Additional observations from a re-analysis of the deposited data

Results flagged for a closer look

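Replicate 2 of the *Stat5a* line at 4 hr was not used in the comparisons because of its few reads on transcripts, and its values were set beside those at 0 hr. Of the 953 genes called higher, 817 (85.7%) lay above all 6 libraries at 0 hr in it, and of the 1712 called lower, 1253 (73.2%) lay below all 6. Of all 14290 genes tested, 38.8% lay above and 42.6% below all 6 in it. *Cish* was at 33.1 normalized RPKM in it, *Lta* at 66.2, and *Fos* at 4.83. Groups here hold at most 3 libraries, too few for a test of single libraries as outliers.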

How the results depend on the processing

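The calls of 4 hr against 0 hr kept within 1.5 times their number in all alternatives except limma and the removal of the fold threshold. With limma on log2(RPKM + 1), 512 genes were higher and 377 lower, and the lines gave 576 and 427 (*Stat5a* line) and 496 and 346 (*Stat5b* line). Its scaling, filter, and test differ together, and the cause was not tested. Without the fold threshold, 4976 genes were higher and 5027 lower. With 1 library left out, genes higher numbered 929 to 985 and genes lower 1566 to 1781, and the lines gave 937 to 1161 and 1463 to 1922 (*Stat5a* line) and 863 to 925 and 1340 to 1525 (*Stat5b* line). The genes called for a difference between lines numbered 0 to 39, the 39 arising without replicate 3 of the *Stat5a* line at 0 hr. Since 2 libraries of this line remain at 4 hr, leaving out another leaves 1, which is then assumed to vary like the other groups. The replicate numbers of 0 hr and 4 hr libraries were not taken as pairs. Deviations of same-numbered libraries correlated at 0.124 and 0.143 in the *Stat5a* line and at 0.146, 0.06, and 0.187 in the *Stat5b* line, where each library correlated best with its own number. With the replicate block, 941 genes were higher and 1629 lower, of which 907 and 1598 were also called without it, and no difference between lines was called. No named gene changed direction, but of those called, 27 were not called with limma, 9 with the replicate block, 9 with all 48 libraries, 9 with the left-out library added, 10 over the 8 libraries, and 1 to 10 under the other alternatives that ended any call. With the left-out library added, 938 genes were higher and 1529 lower, of which 845 and 1410 were also called without it, and 15 genes called without it had a fold change of opposite sign. With all 48 libraries, 870 and 1407 of 1010 and 1621 were shared, and 11 had the opposite sign. Genes below 1 normalized RPKM rest on few reads.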
